A study of Mus musculus with 6 samples.

Results

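The genes described here are Trem2 and 8 genes of the lipid-associated macrophage program, Tyrobp, Apoe, Gpnmb, Fabp5, Lgals3, Cd9, Spp1 and Plin2. They were taken by gene name from a table of 33965 genes, each name matched 1 row, and all 9 passed the filter on low counts. The table holds bulk RNA sequencing of 6 tumors, labelled as MC38 (a mouse colon carcinoma line) grown under the skin of C57BL/6 mice. Of these tumors, 3 came from mice treated with PBS and 3 from mice treated with GB2. GB2 is a prodrug in which the STING agonist MSA-2 is joined through a disulfide bond to artesunate, which the study used as an inhibitor of TREM2. The labels do not give the age of the mice or a dose, and name C57BL/6 for all 6 tumors with no altered gene. The comparison asks how the transcripts of TREM2 and its program differed between GB2 and PBS tumors. The labels do not say whether the tumors came from separate mice, so p-values measure the spread between these samples.

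TREM2 is a surface receptor of macrophages and related cells that binds lipids, lipoproteins and apolipoproteins, APOE among the last. It has no signalling tail of its own and signals through the adapter DAP12, the product of Tyrobp, whose phosphorylated motifs recruit the kinase SYK. Macrophages that take up lipid in fat tissue, plaques and tumors switch on a set of genes for lipid binding, lysosomal digestion and matrix signalling, and in tumors such TREM2-positive macrophages are studied as suppressors of T cells. Most of these genes are also used by other cells, tumor cells included.

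The libraries held between 64764405 and 83690056 counts (PBS 64764405 to 69878156, GB2 81210553 to 83690056). PBS tumor 1 stood apart. Its correlations of log2 CPM (counts per library, scaled to a common total) with the other 5 libraries ran from 0.947 to 0.963, against 0.970 to 0.988 among those 5, and mitochondrial transcripts took 0.988% of its counts against 2.61% to 3.65% in the others. Values without it are given beside the results that turn on it. The labelled tumor type was checked against its markers. Of 8 epithelial and colon markers, Epcam, Krt8, Krt18, Krt19, Krt20, Cdh1, Cldn7 and Cdx2, the summed level was 1.24 to 3.84 FPKM (fragment counts scaled by exon length and library size) in the 6 tumors. Cdx2, the intestinal transcription factor, was listed at 0 in 5 of the 6. In the same tumors 8 genes of pigment cells, Pmel, Tyr, Tyrp1, Dct, Mlana, Sox10, Slc45a2 and Mc1r, summed to between 3168 and 5436 FPKM. This pigment-cell list was chosen after the values were seen, and no test was made on it. The values go against an epithelial tumor in all 6 libraries, in both groups, and the tumors are therefore called by their label only. The levels of Gpnmb and Apoe below are levels in these tumors, and the part that pigment-type cells had in them was not tested.

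**Figure D1:**
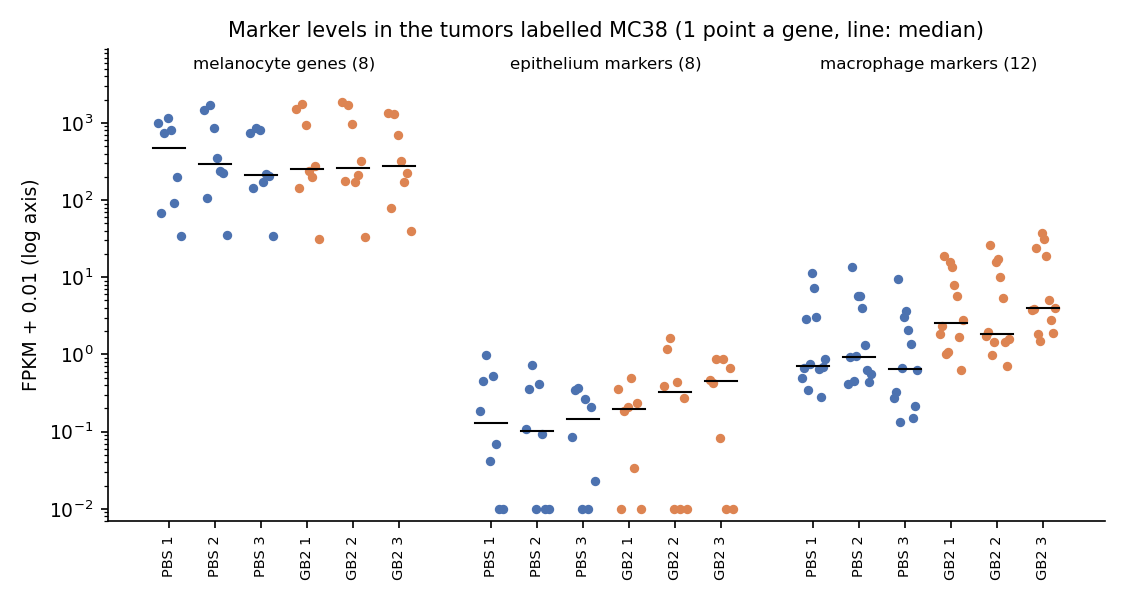
FPKM + 0.01 on a log axis of 8 melanocyte genes, 8 epithelium markers and 12 macrophage markers in each tumor, with 1 point a gene and the median as a line. The melanocyte genes lie above 30 FPKM in every tumor and the epithelium markers below 2 FPKM, while the macrophage markers lie higher in GB2 than in PBS tumors.

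The 9 genes covered a wide range of levels. On the mean FPKM over the 6 tumors, Gpnmb came first with 658, followed by Apoe with 449, Fabp5 with 77.7, Lgals3 with 49.4, Cd9 with 39.4, Plin2 with 29.4, Spp1 with 26.1, Tyrobp with 4.62 and Trem2 with 0.643. Between neighbours in this order, the ranges over the tumors were separate only for Apoe above Fabp5 and for Spp1 above Tyrobp. The other 6 neighbouring pairs overlapped, though Tyrobp was above Trem2 in each of the 6 tumors. Trem2 lay at the 31.4th percentile of mean FPKM among the 19602 tested genes, and Gpnmb and Apoe lay above the 99th.

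The FPKM values depend on the length they were divided by. CPM divided by FPKM matched the summed exon length of the GENCODE vM21 annotation within 5% of the median ratio for 94.0% of 19175 genes. For Trem2 this length was 4.98 kb, while its longest coding transcript in that annotation has 1.09 kb and a retained-intron transcript has 4.78 kb. For Fabp5 the length was 3.56 kb against 0.987 kb for the coding transcript. The FPKM of these 2 genes thus sit 4.57 and 3.61 times below what their coding length would give, and those of Tyrobp and Spp1 1.12 and 1.09 times. On CPM per kilobase of coding transcript, Trem2 remained the lowest of the 9 with a mean of 3.02, and Tyrobp came next with 5.37. Fold changes between tumors are free of this length.

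**Figure D2:**
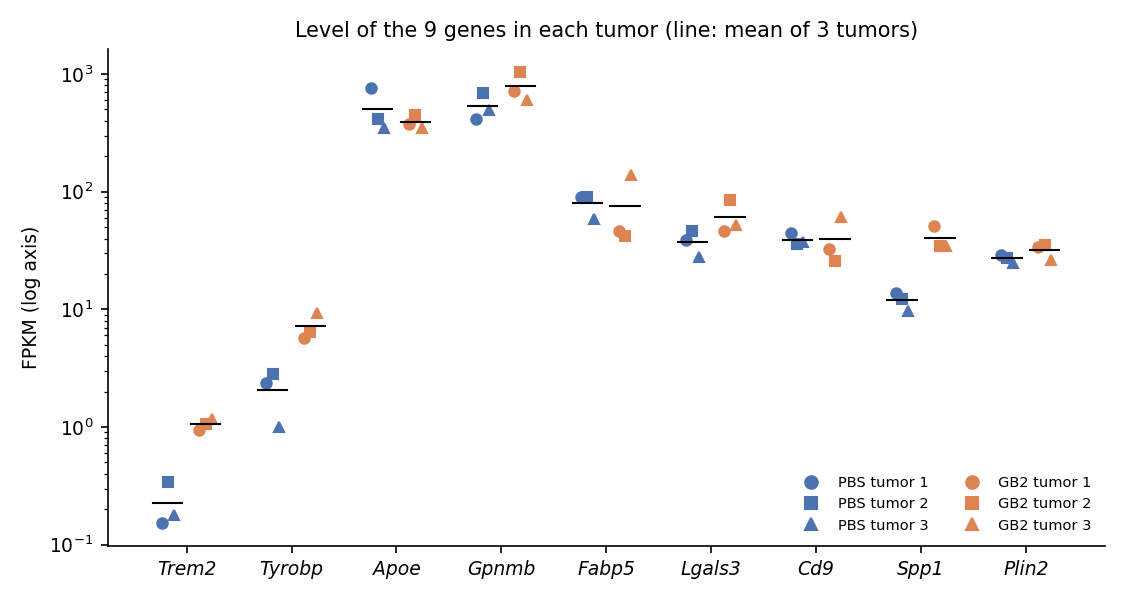
FPKM on a log axis of each of the 9 genes in the 3 PBS and 3 GB2 tumors, with the mean of each group as a line. Trem2, Tyrobp and Spp1 are the genes whose GB2 tumors all lie above all PBS tumors.

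GB2 and PBS tumors were compared by edgeR's quasi-likelihood test over 19602 genes, with Benjamini-Hochberg adjustment. None of the 9 genes reached an adjusted p under 0.05 with a 2-fold difference, and neither did any other gene (0.00% called), while 1564 genes had an unadjusted p under 0.05. At an unadjusted p under 0.05 with at least a 2-fold difference, 3 of the 9 genes were higher in GB2 tumors, Trem2, Tyrobp and Spp1. This rule took 4.37% of all tested genes as higher, and it took none of the 9 as lower (background 1.20%). The same 3 genes were those whose CPM were higher in every GB2 tumor than in every PBS tumor, which held for 8.61% of all tested genes. No member lay lower in every GB2 tumor (background 6.68%). DESeq2, run as an alternative, called these 3 genes at an adjusted p under 0.05, together with 1.45% of the genes it tested as higher. Over the 9 genes the median log2 fold change was 0.51, with 6 values above 0, beside a median of -0.02 over all tested genes. By these rules the receptor, its adapter and osteopontin stood out, and the remaining 6 genes had overlapping groups. Without PBS tumor 1 the unadjusted rule also took 3 of the 9 genes, beside 4.85% of all genes tested then.

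**Figure D3:**
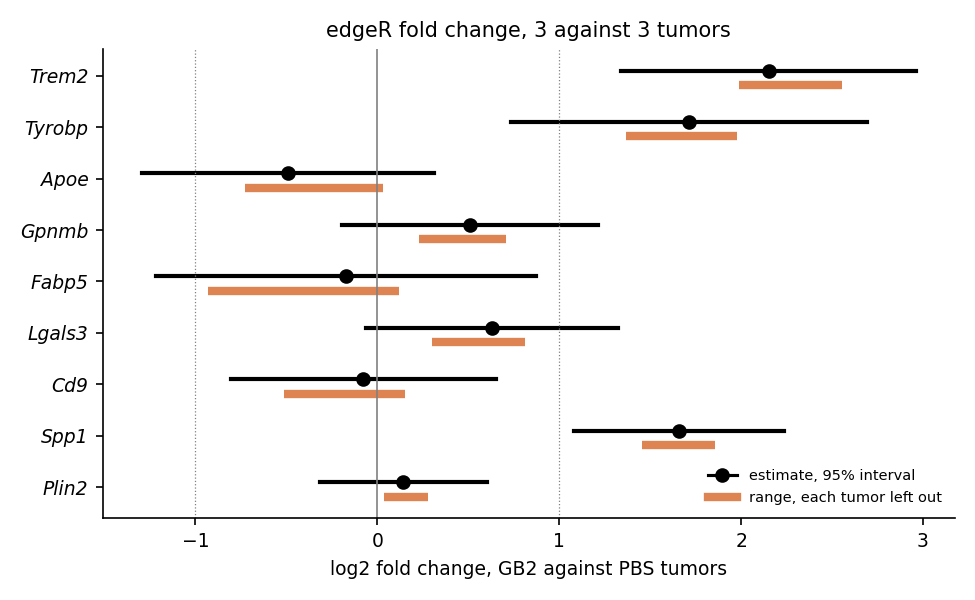
Log2 fold change of GB2 against PBS tumors for the 9 genes, with the 95% interval of the edgeR fit in black and the range of estimates with each tumor left out in orange. The intervals of Trem2, Tyrobp and Spp1 lie above 0 and those of the other genes include 0.

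Trem2 (ENSMUSG00000023992, chromosome 17, 48653429 to 48661175 in the table) had 0.153, 0.342 and 0.178 FPKM in PBS tumors 1 to 3. GB2 tumors 1 to 3 had 0.951, 1.06 and 1.18 FPKM. The lowest GB2 tumor was thus above the highest PBS tumor. The mean was 0.224 ± 0.102 FPKM in PBS and 1.06 ± 0.114 FPKM in GB2 tumors (SD, n = 3 each). On the log2 scale GB2 tumors were 2.15 ± 0.35 (SE) higher, with a 95% interval of 1.34 to 2.96, which is a 4.44-fold difference (edgeR adjusted p = 0.129). Permuting the 6 tumors in an exact two-sided test returned p = 0.1, and 3 against 3 tumors can give no smaller value. The estimate stayed between 1.99 and 2.55 when each tumor was left out in turn, and without PBS tumor 1 it was 2.01. These values rest on few fragments, with 54, 125 and 65 counts in PBS and 399, 457 and 501 counts in GB2 tumors. A count is not 1 fragment here, since a count of 4 occurred 7017 times in the table against 2984 times for 3 and 2017 times for 5.

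Tyrobp (ENSMUSG00000030579, chromosome 7, 30113185 to 30117010), which encodes DAP12, had 2.35, 2.82 and 0.996 FPKM in PBS tumors and 5.71, 6.47 and 9.38 FPKM in GB2 tumors. PBS tumor 3 was the lowest and GB2 tumor 3 the highest, and the groups did not overlap. The difference of 1.71 ± 0.43 (SE) in log2 had a 95% interval of 0.74 to 2.69 (edgeR adjusted p = 0.252). Leaving out each tumor gave 1.37 to 1.98. The proportion of adapter to receptor was narrow in the GB2 tumors. Per kilobase of coding transcript there were 1.48, 1.50 and 1.96 Tyrobp for each Trem2 in GB2 tumors 1 to 3. The PBS tumors spread more widely, with 3.68, 2.03 and 1.37, and their range included the range of the GB2 tumors. Counts behind the PBS values were lower, 54 to 125 for Trem2 and 49 to 139 for Tyrobp. GB2 tumors had 399 to 501 and 324 to 538 counts of the same genes. The part of low counts in the wider PBS spread was not tested.

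Apoe (ENSMUSG00000002985, chromosome 7, 19430034 to 19433113) encodes the apolipoprotein that carries cholesterol out of macrophages and binds TREM2. It had 765, 415 and 346 FPKM in PBS tumors. GB2 tumors had 372, 445 and 350 FPKM. PBS tumor 1 was the highest of all and the other 5 tumors lay close together. The fitted log2 difference, -0.49 ± 0.35 (SE), had a 95% interval of -1.30 to 0.31 (edgeR adjusted p = 0.723). Without PBS tumor 1 it was 0.03, so the lower value in GB2 tumors rested on that library. The ligand thus overlapped between the groups, while its receptor lay higher in all 3 GB2 tumors, as 8.61% of all tested genes did. Neither the ligand nor the receptor passed the adjusted limit in edgeR.

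Fabp5 and Plin2 serve the handling of lipid inside the cell. Fabp5 (ENSMUSG00000027533, chromosome 3, 10077608 to 10081667), a carrier of fatty acids also used by skin keratinocytes, had 89.6, 90.6 and 58.9 FPKM in PBS tumors. In GB2 tumors it had 46.4, 42.0 and 139 FPKM, so the GB2 tumors held both the lowest values and the highest. The edgeR estimate was -0.17 ± 0.45 (SE) in log2 (adjusted p = 0.915). Leaving out GB2 tumor 3 gave -0.93 and leaving out GB2 tumor 2 gave 0.12. The 8 keratinocyte and skin markers summed to 60.6 FPKM in GB2 tumor 3 and to 12.04 to 41.4 FPKM in the other 5 tumors. Of these markers 5 were highest in that tumor, the basal keratins Krt5 and Krt14 among them with 24.1 and 26.8 FPKM, while Krt10, Lor and Flg were not, and the barrier gene Flg was listed at 0 there. The part of skin tissue in the Fabp5 value was not tested. Plin2 (ENSMUSG00000028494, chromosome 4, 86566623 to 86588297), the coat protein of lipid droplets, had the smallest standard error of the 9. It had 29.2, 27.5 and 24.7 FPKM in PBS and 33.6, 35.3 and 26.1 FPKM in GB2 tumors. GB2 tumor 3 fell within the range of the PBS tumors. The log2 estimate was 0.14 ± 0.20 (SE) with a 95% interval of -0.32 to 0.60 (edgeR adjusted p = 0.847), and it ran from 0.04 without GB2 tumor 2 to 0.28 without PBS tumor 1.

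Gpnmb (ENSMUSG00000029816, chromosome 6, 49013480 to 49047863) encodes a lysosomal and surface glycoprotein of both lipid-loaded macrophages and pigment cells. Its level was 411, 683 and 496 FPKM in PBS tumors and 715, 1043 and 601 FPKM in GB2 tumors. PBS tumor 2 lay above GB2 tumor 3, so the groups overlapped. GB2 tumors were 0.51 ± 0.31 (SE) higher in log2, with a 95% interval of -0.20 to 1.21 (edgeR adjusted p = 0.687). The estimate was 0.23 without GB2 tumor 2, the tumor with the highest level. Against the mean log2 level of the 8 pigment-cell genes, Gpnmb stood 1.65, 2.09 and 2.00 log2 units higher in PBS tumors and 2.16, 2.65 and 2.11 in GB2 tumors. Mitf, the pigment-cell transcription factor that acts on Gpnmb in melanocytes and osteoclasts, had 58.4 to 97.6 FPKM in PBS and 80.2 to 87.7 FPKM in GB2 tumors, with a log2 fold change of 0.01.

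Lgals3 (ENSMUSG00000050335, chromosome 14, 47605208 to 47623617) encodes galectin-3, a sugar-binding lectin that macrophages secrete. It had 38.5, 46.5 and 27.8 FPKM in PBS tumors and 46.2, 85.1 and 52.6 FPKM in GB2 tumors. The groups overlapped only in that PBS tumor 2 was just above GB2 tumor 1 in FPKM. A log2 difference of 0.63 ± 0.30 (SE) was fitted, with a 95% interval of -0.06 to 1.33 (edgeR adjusted p = 0.662). Without GB2 tumor 2, again the highest, it was 0.30. Cd9 (ENSMUSG00000030342, chromosome 6, 125437229 to 125471754), a tetraspanin of membranes and exosomes, had 44.3, 35.7 and 37.6 FPKM in PBS tumors. In GB2 tumors it had 32.3, 25.6 and 61.0 FPKM, the same pattern of 2 low values and a high GB2 tumor 3 as Fabp5. The edgeR estimate for Cd9 was -0.08 ± 0.32 (SE) in log2 (adjusted p = 0.944). Leaving out GB2 tumor 3 gave -0.52, and leaving out GB2 tumor 2 gave 0.15.

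Spp1 (ENSMUSG00000029304, chromosome 5, 104582984 to 104588916) encodes osteopontin, a secreted ligand of integrins and CD44. PBS tumors had 13.8, 12.3 and 9.75 FPKM, and GB2 tumors had 51.6, 34.5 and 34.8 FPKM. Every GB2 tumor was thus above every PBS tumor, with PBS 11.97 ± 2.06 and GB2 40.29 ± 9.76 FPKM (SD, n = 3 each). In log2 the difference was 1.66 ± 0.25 (SE), with a 95% interval of 1.08 to 2.24, or 3.16-fold (edgeR adjusted p = 0.127). It stayed between 1.46 and 1.86 with each tumor left out, and the exact permutation test again gave its smallest p of 0.1. Spp1 was number 18 and Trem2 number 42 of the 19602 genes in order of p.

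The sequences before the start sites of these 2 genes are shown because they were higher in all GB2 tumors and have a RefSeq entry on GRCm38.p6. Both are on the plus strand, 5′ to 3′, at chr17:48346151-48346400 for Trem2 and chr5:104434861-104435110 for Spp1, and capitals mark matches to 1 of 3 motifs.
Trem2: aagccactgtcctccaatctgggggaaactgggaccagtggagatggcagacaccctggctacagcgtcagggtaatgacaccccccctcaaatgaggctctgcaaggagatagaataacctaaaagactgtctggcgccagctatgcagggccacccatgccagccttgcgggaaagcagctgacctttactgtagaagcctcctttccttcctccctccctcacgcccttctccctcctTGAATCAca
Spp1: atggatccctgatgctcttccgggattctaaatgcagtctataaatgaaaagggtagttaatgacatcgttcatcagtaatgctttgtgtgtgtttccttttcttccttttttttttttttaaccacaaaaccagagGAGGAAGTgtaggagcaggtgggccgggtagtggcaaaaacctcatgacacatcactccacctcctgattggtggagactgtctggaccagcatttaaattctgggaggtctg
Each motif was searched on both strands of the 300 bases from 250 before to 50 after each start. The AP-1 motif TGANTCA matched in Trem2 with its first base 9 bases before the start and in Gpnmb from base 9 after it, and it is present in 7.81% of 32851 promoters. The PU.1-type motif GAGGAAGT, of the myeloid ETS factor, matched in Spp1 113 bases before the start (3.20% of promoters). The E-box CACGTG matched in Plin2 4 bases before the start (7.15% of promoters). None of the 3 motifs was in the windows of Apoe, Lgals3 or Cd9, and windows of 7 of the 9 genes were found. A match is a string of letters and no measurement of binding.

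The other genes around TREM2 were then taken from fixed lists. Of 13 other TREM family genes and receptors that use DAP12 or DAP10, 8 passed the filter, and 7 of these 8 reached its minimum count in every GB2 tumor but not in every PBS tumor. Passing in this way favours genes with higher values in GB2 tumors, so no count or median of the list is given and its fold changes are descriptions. Their levels were low, at most 0.579 FPKM in any tumor. Cd300lb, an activating receptor of myeloid cells, was the most abundant of them, with 0.039 to 0.137 FPKM in PBS and 0.492 to 0.579 FPKM in GB2 tumors (log2 fold change 2.39). Sirpb1b had the highest fold change of the list, 2.57, with counts of 3, 10 and 0 in PBS and 32, 30 and 37 in GB2 tumors, and Klrk1, the NKG2D receptor, the lowest, 1.11. Trem1, the receptor that amplifies inflammatory signals through the same adapter, had 0.134, 0.075 and 0.027 FPKM in PBS and 0.276, 0.303 and 0.255 FPKM in GB2 tumors (log2 fold change 1.72, edgeR adjusted p = 0.396).

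Of 21 genes of signalling below DAP12, 20 had a value above 0 (48.4% of all tested genes) and 10 were higher by the unadjusted rule (4.37% of all). Vav3 and Pik3cg, both among the 10, passed the filter through the GB2 tumors, and of the other 19 genes 8 were higher, with a median of 0.81. Syk, the kinase that docks on DAP12, had 0.742, 0.854 and 0.583 FPKM in PBS and 1.13, 1.26 and 1.56 FPKM in GB2 tumors, groups that did not overlap. Its log2 fold change of 0.78 was under 2-fold (edgeR adjusted p = 0.428). Pik3cg, a leukocyte PI3-kinase subunit, had the highest value, 2.88, at levels of at most 0.406 FPKM. Card9 had the lowest, -0.02, and the widely used adapter Grb2, the most abundant, had 0.11. The sheddases that cleave TREM2 from the surface gave 0.53 for Adam10 and -0.07 for Adam17, with adjusted p of 0.652 and 0.898 in edgeR.

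Of 26 further genes of the lipid-associated and phagocyte program, 25 were tested, and 21 of them were above 0 (48.4% of all tested genes). By the unadjusted rule 10 were higher (4.37% of all), and the median was 0.92. Cd52, 1 of the 21, passed the filter through the GB2 tumors. Of the other 24 genes 10 were higher, with a median of 0.78. Lyz2, the lysozyme of macrophages and granulocytes, had 16.7, 27.8 and 23.2 FPKM in PBS and 107, 90.1 and 108 FPKM in GB2 tumors. Its log2 fold change of 2.11 was the highest of the list, with an edgeR adjusted p of 0.109, the smallest of all genes. The most abundant, Lgals1 at 657 FPKM on average, had -0.25, and the lowest was Capg with -0.32.

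Genes of cholesterol export and of lipid storage were counted separately. Of 13 lipoprotein and LXR target genes, 3 were higher by the unadjusted rule (4.37% of all tested genes) and 1 was lower, Apoc2 (1.20% of all). The 3 were the lipid exporters Abca1 and Abcg1 and the phospholipid transfer protein Pltp. Without PBS tumor 1 there were 3 higher (4.85% of all genes tested then) and 0 lower, and the median moved from 0.21 to -0.02. Abca1, the pump that loads lipid onto APOE, had 0.785, 1.07 and 1.36 FPKM in PBS and 2.63, 3.06 and 2.13 FPKM in GB2 tumors, the highest value of the list (log2 fold change 1.22, edgeR adjusted p = 0.178). Apoc2, a neighbour of Apoe in the genome, had the lowest, -1.71, at 0.516 to 0.898 FPKM in PBS and 0.094 to 0.446 FPKM in GB2 tumors. Scd2, the most abundant, had 0.21. Of 27 genes of lipid uptake, storage and hydrolysis, 2 were higher by the unadjusted rule (4.37% of all tested genes), and the median was 0.17 with all tumors and 0.02 without PBS tumor 1. Hilpda, a hypoxia-induced inhibitor of fat hydrolysis at lipid droplets, was the most abundant and also the lowest with -0.78, at 66.6 to 83.97 FPKM in PBS and 27.9 to 57.9 FPKM in GB2 tumors. The 2 were the scavenger receptors Msr1 (log2 fold change 1.69) and Olr1 (2.96). Olr1 passed the filter only through the GB2 tumors, with counts of 4, 0 and 0 in PBS and 18, 12 and 12 in GB2 tumors. Plin3, the closest relative of Plin2 in the list, had 0.20.

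Of 12 receptors and partners of osteopontin and galectin-3, 1 was higher by the unadjusted rule (4.37% of all tested genes), Itga4, an integrin subunit, with a log2 fold change of 1.16. In 3 of the 12 every GB2 tumor was above every PBS tumor (8.61% of all), and the median was 0.41. Without PBS tumor 1, 0 of the 12 passed the unadjusted rule (4.85% of all genes tested then). Cd44, the osteopontin receptor, had 52.0 to 85.6 FPKM in PBS and 70.2 to 79.3 FPKM in GB2 tumors (log2 fold change 0.04). Of 7 other galectins, 1 passed the unadjusted rule (4.37% of all), Lgals9, with a log2 fold change of 1.003, and without PBS tumor 1 there were 0. Of 9 other tetraspanins, 1 passed it (4.37% of all), the leukocyte tetraspanin Cd53, with 1.05, 1.25 and 1.09 FPKM in PBS and 3.21, 3.36 and 3.73 FPKM in GB2 tumors (log2 fold change 1.52). With 1 gene each, these counts say nothing of the families as a whole. Among the 4 MiT/TFE factors, which act on lysosomal genes, Tfec had 1.58 and the other 3 had values between -0.08 and 0.07. In the list of 8 osteoclast genes, which shares Acp5 and Atp6v0d2 with the phagocyte program, 3 of 6 tested genes were higher by the unadjusted rule (4.37% of all). Ocstamp, not among these 3, passed the filter through the GB2 tumors, and the 3 were among the other 5 genes.

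**Figure D4:**
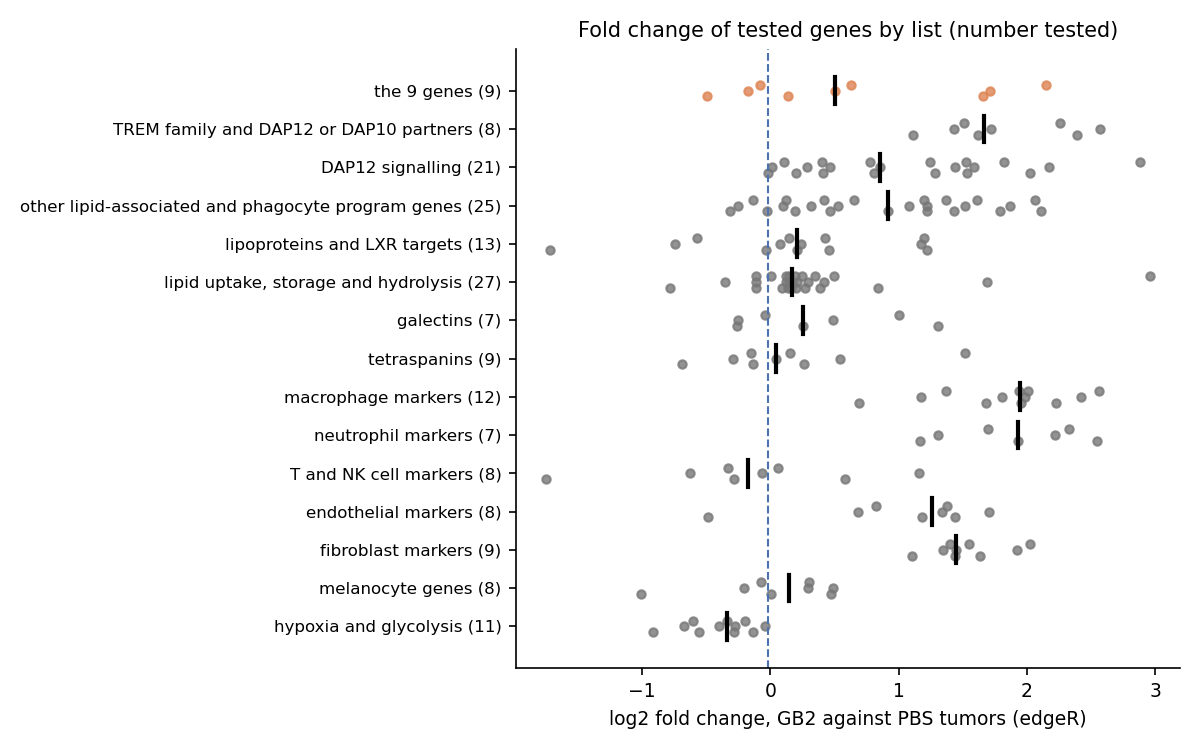
Log2 fold change of GB2 against PBS tumors for the tested genes of 15 lists, with 1 point a gene, the list median as a black line and the median of all tested genes (-0.02) as a dashed line. The macrophage (median 1.94), fibroblast (1.45) and endothelial (1.26) markers lie to the right. So do the neutrophil markers (1.93), of which 3 of 7 passed the filter through the GB2 tumors. Lipid storage genes (0.17) and melanocyte genes (0.15) lie near the dashed line. Of the receptor partners 7 of 8 passed the filter through the GB2 tumors, so their place to the right is no result.

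Markers of several host cell types were higher beside Trem2, Tyrobp and Spp1. In bulk tumors, a change in the number of cells of a type and a change in RNA per cell cannot be told apart. All 12 macrophage markers had values above 0 (48.4% of all tested genes). Of them 10 were higher by the unadjusted rule (4.37% of all), with a median of 1.94. Without PBS tumor 1, 9 were higher (4.85% of all genes tested then), with a median of 2.13. Their summed level was 21.8 to 34.5 FPKM in PBS and 73.6 to 135 FPKM in GB2 tumors. The widest difference was that of Adgre1, the F4/80 antigen, with 0.485, 0.402 and 0.266 FPKM in PBS and 1.83, 1.72 and 3.72 FPKM in GB2 tumors. Of 10 neutrophil markers 7 were tested. By the unadjusted rule 6 of these were higher (4.37% of all), 2 of which passed the filter through the GB2 tumors. The summed level was 3.32 to 6.11 FPKM in PBS and 13.4 to 16.5 FPKM in GB2 tumors. The defining marker Ly6g, however, was listed at 0 in all 6 tumors. All 9 fibroblast markers were higher by the same rule (4.37% of all tested genes), with a median of 1.45. They summed to 36.9 to 63.0 FPKM in PBS and 116 to 165 FPKM in GB2 tumors. Of 8 endothelial markers, 5 were higher by it (4.37% of all), with a median of 1.26. They summed to 7.66 to 11.1 FPKM in PBS and 20.6 to 23.7 FPKM in GB2 tumors. None of the tested T and NK, dendritic cell, adipocyte, keratinocyte or skeletal muscle markers was higher by that rule. Their medians were -0.17, 0.33, 0.70, 0.38 and 0.63 in that order. All 8 skeletal muscle markers had values above 0 (48.4% of all tested genes). In 4 of these 8 every GB2 tumor was above every PBS tumor (8.61% of all). Clec9a, Ccr7 and Cd209a (dendritic cell), Gzmb (T and NK) and Lep (adipocyte) passed the filter through the GB2 tumors. Over markers at the minimum count in every PBS tumor, the median was 0.09 for 4 dendritic cell and 0.69 for 7 adipocyte markers. Of 4 tested B cell markers 1 was higher (4.37% of all), with a median of 0.18. Of 5 tested epithelium markers all had values above 0 (48.4% of all tested genes), with a median of 0.51. By the rule 2 were higher (4.37% of all), Epcam with 1.67 and Krt20, which passed the filter through the GB2 tumors, with 2.42. When PBS tumor 1 was left out, 1 epithelium marker was higher (4.85% of all genes tested then) and the median was 0.84. Without PBS tumor 1, the rule took 2 dendritic cell, 2 adipocyte, 3 keratinocyte, 1 skeletal muscle and 0 B cell markers. It took 4.85% of all genes tested then. The adipocyte, keratinocyte and B cell medians were 1.04, 0.60 and -0.15 without that tumor. The 8 pigment-cell genes had a median of 0.15 (0.09 without PBS tumor 1), and 11 hypoxia and glycolysis genes one of -0.33. The part of each cell type in the Trem2, Tyrobp and Spp1 values was not tested.

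Each gene was next expressed against the macrophage markers of the same tumor, as its log2 CPM minus the mean of the 12 markers. That mean was 1.75, 1.85 and 0.98 in PBS and 3.08, 3.17 and 3.90 in GB2 tumors. Relative to it Trem2 stood at -1.84, -1.002 and -1.06 in PBS tumors and at -0.83, -0.71 and -1.33 in GB2 tumors. The groups overlapped, and the difference of 0.35 had an exact two-sided permutation p of 0.4. Without PBS tumor 1 that difference was 0.08. Tyrobp differed by -0.06 and Spp1 by -0.20, each with an exact permutation p of 0.8 over 3 against 3 tumors, and without PBS tumor 1 the Tyrobp difference was 0.04. For these 3 genes no difference relative to macrophage markers was thus detectable with 3 tumors a group. The other 6 genes were lower relative to the markers in every GB2 tumor than in every PBS tumor, with Apoe at -2.24, Fabp5 at -2.21, Cd9 at -2.01, Plin2 at -1.72, Gpnmb at -1.37 and Lgals3 at -1.25. That is no property of these genes, since 78.5% of all tested genes were lower in this way, and the exact permutation p of 0.1 is the smallest that 9 such comparisons of 3 against 3 tumors can give. The proportion higher in every GB2 tumor was 0.117% of all tested genes and none of the 9.

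**Figure D5:**
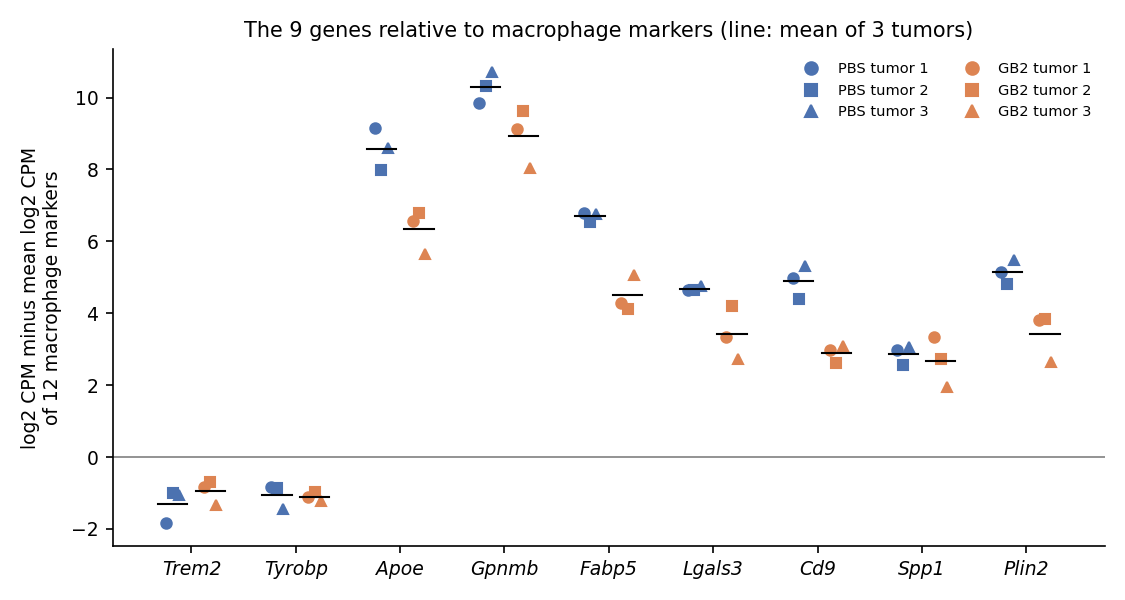
Log2 CPM of each of the 9 genes minus the mean of 12 macrophage markers in the same tumor, with the group mean as a line. Trem2, Tyrobp and Spp1 overlap between PBS and GB2 tumors, and the other 6 genes lie lower in GB2 tumors.

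The genes with the most similar pattern over the 6 tumors were found by the root mean square distance between log2 values centred on their own means, as a description with no test. The 8 nearest to Trem2 were Gm45416, Cxcr2, Ly9, Fbln2, Cd22, Pira2, Pirb and Ncf1, at distances of 0.103 to 0.220 log2 units. Gm45416 had a mean of only 0.033 FPKM. Pira2, Pirb and Ncf1 belong to myeloid cells, as paired immunoglobulin-like receptors and a subunit of the NADPH oxidase, Cxcr2 is a chemokine receptor of neutrophils, and Fbln2 is a matrix protein. Cd22 is an inhibitory receptor of B cells and Ly9 a SLAM family receptor of lymphocytes and other immune cells. The nearest to Tyrobp were Ifi204, Ctss and Lsp1, and Ctss, the cathepsin of antigen-presenting cells, had 6.61 to 13.0 FPKM in PBS and 28.2 to 49.2 FPKM in GB2 tumors. The nearest to Spp1 were Cthrc1, Elmo1 and Ccl9. Gpnmb was nearest to Pakap, Ctsb and Rgl1, and Plin2 to Elovl7, Oxct1 and Ctsz. Apoe was nearest to Oxld1, Metrn and Hmgn2-ps1, which share its high value in PBS tumor 1. Fabp5 was nearest to Gm45799, Pax9 and Ddc, and Cd9 to Thg1l, Gm37499 and Hectd2, sets with a high value in GB2 tumor 3.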

How the data were processed

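RNA from 3 PBS and 3 GB2 tumors was poly-A selected, made into dUTP-stranded libraries and sequenced as paired ends. The submitters' processing notes name cutadapt 1.9, HISAT2 2.2.1, StringTie 2.1.6, edgeR, DESeq2 and mm10. For each of 33965 genes the authors deposited whole-number counts, not scaled between tumors, and FPKM, which are scaled by exon length and library. Only 595 of 31999 shared gene IDs (1.86%) have their GRCm38 position, so positions printed are those of the table, whose build is not given there. Strand use in counting is not stated, and Cd9 and Spp1 overlap other annotated genes.

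The tests on counts used edgeR 4.0.16 under R 4.3.3 (filterByExpr with a minimum count of 10, TMM, glmQLFit with legacy = FALSE, glmQLFTest). Calls required 2-fold and an adjusted p under 0.05. The common dispersion gave a biological coefficient of variation of 40.5%. The fits were tested on simulated data. CPM used TMM-scaled libraries and log2 CPM a prior count of 2. Single values were compared by exact permutation tests of the 6 tumors. Alternatives were DESeq2 1.42.0, limma 3.58.1 on log2 FPKM, other scalings and filters, counts divided by 4, a replicate block and each tumor left out. The named genes are the 9 and, of each list, at most 4 by a rule (the most abundant, the highest and lowest fold changes, a direct partner). For several lists not all of these are printed, and genes that alone, or as 1 of a pair, passed a limit were named after their values were seen. Which genes passed the filter through the GB2 tumors alone was counted after seeing the data. The pigment-cell list and the list medians and counts without PBS tumor 1 were chosen after seeing the data. The genes nearest to Lgals3 are not reported here. The 9 genes and the lists were chosen with earlier results of these data known.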

Additional observations from a re-analysis of the deposited data

How the results depend on the processing

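The count of genes called was 0 in edgeR, in limma and with each tumor left out (range 0 to 0), and 372 in DESeq2, where the Trem2 estimate was 2.17 (adjusted p = 6.2e-06, against 0.117 to 0.495 in the other 15 alternatives). The cause was not tested. With each tumor left out, the Trem2 estimate ran from 1.99 to 2.55 and 3 of the 9 genes passed the unadjusted rule every time (range 3 to 3). On log2(FPKM + 1) Trem2 had 0.75 and 2 of the 9 genes passed (0.499% of all genes there, or 0.289% with no filter), since a pseudocount of 1 exceeds most Trem2 levels. Trem2 minus the macrophage marker mean ran from 0.08 to 0.54 with each tumor left out, and from 0.08 to 0.45 with another scale or marker list (exact permutation p 0.3 to 0.6). Signs turned for Apoe (range -0.73 to 0.029 with each tumor left out, above 0 without PBS tumor 1), Fabp5 (range -0.93 to 0.12, above 0 without PBS tumor 1, GB2 tumor 1 or GB2 tumor 2) and Cd9 (range -0.52 to 0.15, above 0 without the same tumors, and 2.9e-05 on library size alone). Tumors with the same replicate number deviated together with correlations of 0.031, 0.154 and -0.245. These values gave no sign of pairing by number, and with 3 tumors a group they cannot exclude it. With the replicate block 0 genes were called and Trem2 had 2.199, and 1 of the 6 tumors correlated best with its own number. With 3 tumors a group, the standard errors of the 9 log2 fold changes were 0.20 to 0.45.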
